A study of Mus musculus with 40 samples.

Results

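The comparison described here is VB against vehicle in livers of germ-free mice on a Western diet. VB is delta-valerobetaine, a trimethylated amino acid derivative. Its members are the 10 mice whose sample titles give the Western diet, 5 with VB and 5 with vehicle, out of 20 mice in the series. Groups were taken from the titles. The treatment tag of 1 lane file reads vehicle where its title reads VB, and its counts correlated best with the other lane of the same VB mouse.

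All 20 mice were male C57BL/6 animals raised germ-free, so that no gut microbes were present to make or break down the compound, and the treatment lasted 6 weeks, with livers collected on postnatal day 64. The vehicle mice of the Western diet differ from the VB mice only in the compound, as far as the labels say; the remaining 10 mice ate a control diet and received VB or vehicle, with 5 in each group. Neither the hour of collection, the composition of the diets nor the route and dose of VB is stated by the labels. Each mouse had 2 lane files, which were summed, and nothing in the labels says that mice with the same number were related.

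VB belongs to the trimethylammonium compounds, like carnitine, its precursor gamma-butyrobetaine, choline and betaine. Carnitine carries long-chain fatty acids into mitochondria, where they are oxidized, and enters hepatocytes through the transporter encoded by Slc22a5. In a liver fed a fat-rich diet, fatty acids that are not oxidized are stored as triglyceride in droplets coated by perilipins and CIDE proteins, and the nuclear receptors PPARA and PPARG drive oxidation and storage genes respectively.

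Counts per Western diet mouse ran from 16315342 to 22226536 in the vehicle group and from 18157449 to 24566686 in the VB group. Hepatocyte markers summed to 50472 CPM, counts scaled per library, ± 9384 (SD, n = 5) in vehicle mice and 49435 ± 4893 in VB mice, so both groups carried the defining transcripts of liver. Vehicle mouse 4 stood apart on the first principal component of the 10 livers (25.7% of the variance), at -62.9 against -19.9 to 25.3 in the other 9. It also had 4.62% of its counts in mitochondrially encoded genes, against 2.17% to 3.33% in the other 9, and its TMM factor was the lowest, at 0.823. The second component (21.99%) separated the groups, from 0.808 to 39.1 in vehicle mice and from -36.5 to -3.38 in VB mice. VB mice 2 and 5 carried traces of fat cell transcripts, with the adipokine gene Adipoq at 7.31 and 4.09 CPM against at most 0.176 CPM in the other 8 mice. Traces of other tissues were also seen in them. The pancreatic acinar gene Ctrb1 was at 3.29 CPM in VB mouse 2 and at most 0.088 CPM in the other Western diet mice. The muscle gene Acta1 was at 3.94 CPM in VB mouse 5 and at most 0.165 CPM in the others. The part of these traces in the results was not tested. In whole tissue, fewer cells of a type and less RNA per cell cannot be told apart.

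A summary of clock gene expression also separated the groups without overlap, and it stands beside all gene groups below. A clock score was taken as the first principal component of clock genes over all 20 mice, in SD units and signed so that a high score goes with high Dbp, an output gene of the clock. It averaged 1.41 ± 0.18 (SD, n = 5) in vehicle mice and 0.0875 ± 0.403 in VB mice. The 5 vehicle mice ranged from 1.23 to 1.72 and the 5 VB mice from -0.348 to 0.51, without overlap (exact permutation test, two-sided, p = 0.00794, the smallest that 5 against 5 mice can give; Benjamini-Hochberg adjusted p = 0.0317 over 16 summed values). With the score as a covariate, edgeR called 0 genes for VB on the Western diet in place of 907, and 598 genes instead of 2560 had an unadjusted p under 0.05. Of the score's variance 93.6% was between the 4 groups, diet included. The score and the groups were thus nearly collinear, and this fit cannot separate them. The median SE of the 907 genes went from 0.145 to 0.3. The size of their log2 changes had a median of 0.609 without and 0.341 with the covariate, and 814 of the 907 kept their sign. This score also holds clock output genes, some of which are on other lists below, such as Por. A core clock score, from the core loop genes alone, was chosen after seeing the data. Of its variance 92.5% was between the groups, and with it as covariate 18 genes were called.

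**Figure D1:**
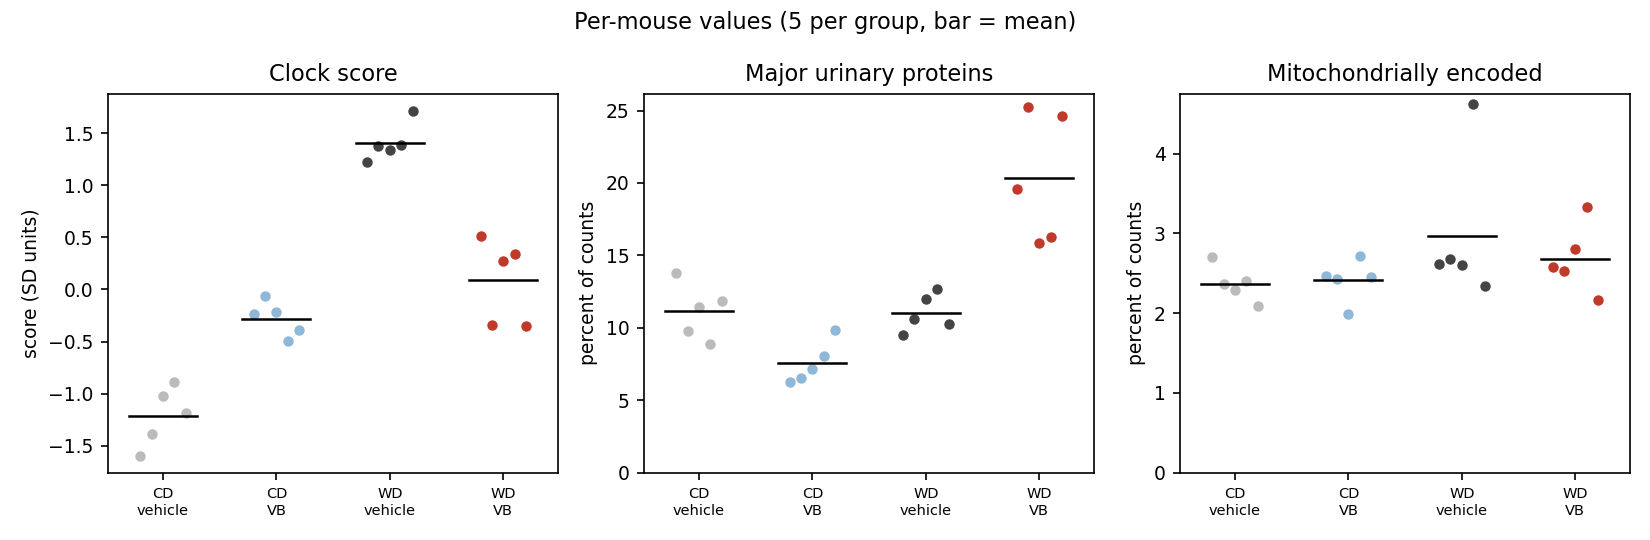
Clock score (in SD units), percent of counts in major urinary protein genes and percent of counts in mitochondrially encoded genes, one point per mouse and a bar at the mean of 5 mice, for control diet (CD) and Western diet (WD). On the Western diet the clock scores of vehicle mice (1.23 to 1.72) lie above those of VB mice (-0.348 to 0.51), while the major urinary protein shares of VB mice (15.9% to 25.2%) lie above those of vehicle mice (9.53% to 12.7%).

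The first question was how many genes VB changed on this diet and which moved with the least error. Of 12616 genes tested, 907 (7.19%) passed a Benjamini-Hochberg adjusted p under 0.05 in edgeR's quasi-likelihood test, 420 of them higher (3.33%) and 487 lower (3.86%) in VB mice. At least 2-fold changes made up 86 of the rises and 131 of the falls, and changes under 1.5-fold made up 217 and 207. In 541 of the 907 genes the 2 groups did not overlap in CPM, while 702 (5.56%) of all tested genes did not overlap. The median log2 change over all tested genes was -0.016. Calls were fewer among weakly expressed genes: 59 rises and 89 falls fell in the lowest 4206 genes by mean CPM, against 219 and 243 in the highest 4205. Without vehicle mouse 4 the number of called genes was 1225, and without VB mouse 5 it was 605, the highest and lowest numbers found on leaving out 1 mouse. A fit of the 2 Western diet groups alone called 464, of which 451 were among the 907.

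The smallest adjusted p-values belonged to genes that fell. Fzd4, a Wnt and norrin receptor gene (chromosome 7, 89404355 to 89413134, plus strand), had, in mice 1 to 5 of each group in order here and below, 20.1, 23.6, 21.7, 21.5 and 30.5 CPM in the vehicle mice and 6.21, 5.93, 9.94, 8.75 and 8.75 CPM in the VB mice. Every VB mouse lay at or below 9.94 CPM and every vehicle mouse at or above 20.1 CPM. The gene fell 2.95-fold (log2 change -1.56, SE 0.16, adjusted p = 2.3e-05). Pdlim2, which encodes a PDZ and LIM domain adaptor (chromosome 14, 70164218 to 70177681, minus strand), was measured at 2.90, 3.99, 4.82, 5.65 and 4.83 CPM in the vehicle mice and 1.06, 0.742, 1.10, 1.18 and 0.625 CPM in the VB mice. Here too the groups did not overlap, with a fall of 4.67-fold (log2 change -2.22, SE 0.25, adjusted p = 3.15e-05). Lipe, which encodes hormone-sensitive lipase (chromosome 7, 25379527 to 25398710, minus strand), was measured at 18.1, 22.5, 26.6, 29.1 and 29.05 CPM in the vehicle mice and 10.4, 9.80, 9.66, 11.9 and 10.8 CPM in the VB mice. VB mice spanned a narrow range below all vehicle mice, a fall of 2.38-fold (log2 change -1.25, SE 0.14, adjusted p = 3.15e-05). Among the other 7 falls with the smallest p were the progestin receptor gene Paqr7 at -1.36 (SE 0.17), the ferroptosis suppressor Aifm2 at -0.95 (SE 0.12), the netrin receptor Unc5b at -2.01 (SE 0.26), the mitochondrial import factor Grpel2 at -1.12 (SE 0.15) and the biotin and pantothenate transporter Slc5a6 at -1.502 (SE 0.22) on the log2 scale. Among rises with small p, Proser2 was at 0.80 (SE 0.10), Smagp at 0.64 (SE 0.09) and Ficd, an enzyme that modifies the chaperone BiP, at 0.96 (SE 0.14).

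**Figure D2:**
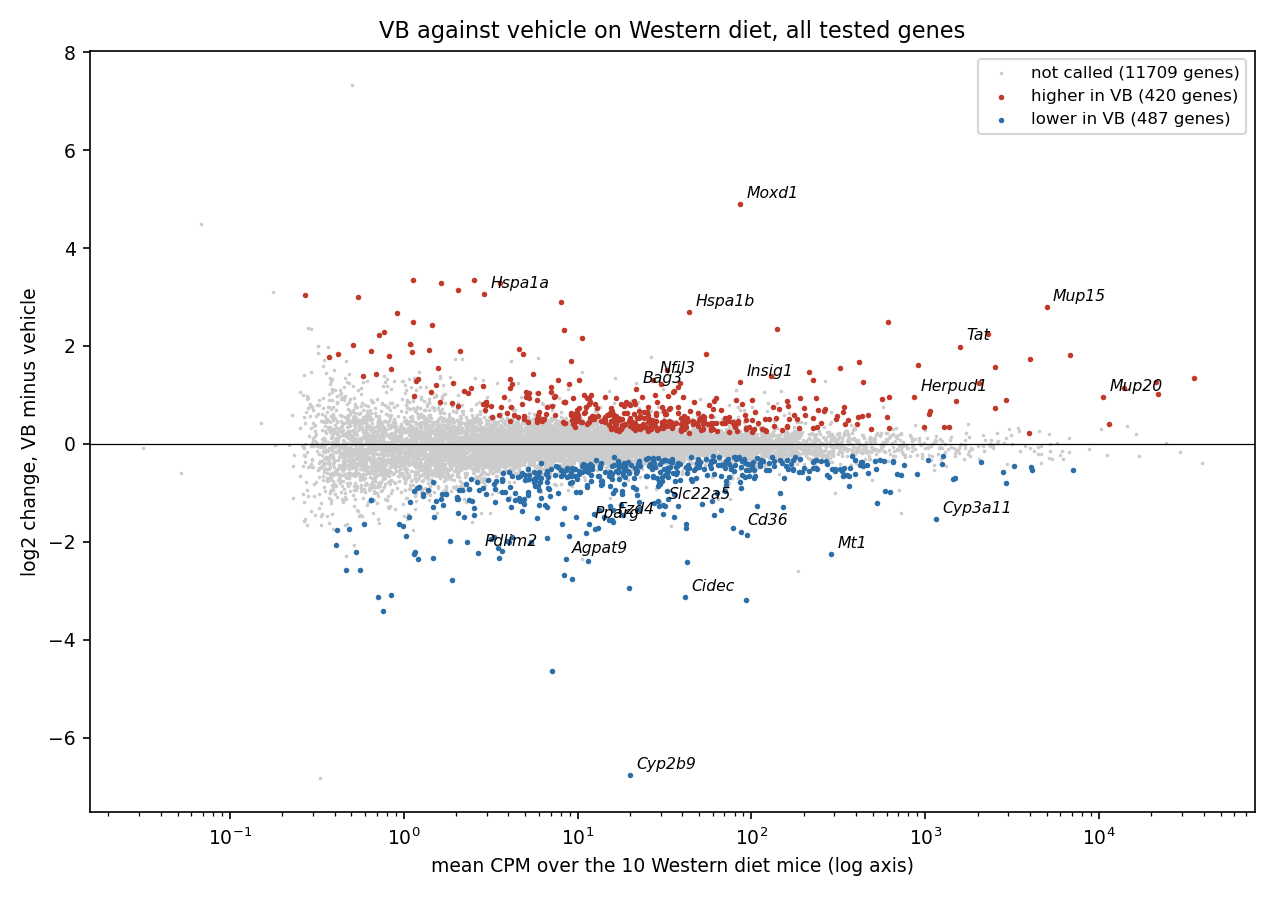
Log2 change in VB against vehicle mice on Western diet (vertical) against mean CPM of the 10 mice on a log axis (horizontal), one point per tested gene, with 420 called higher in red and 487 called lower in blue. Called genes occur at all levels, from Hspa1a and Pdlim2 at low CPM to Mup20 and Cyp3a11 at high CPM.

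**Figure D3:**
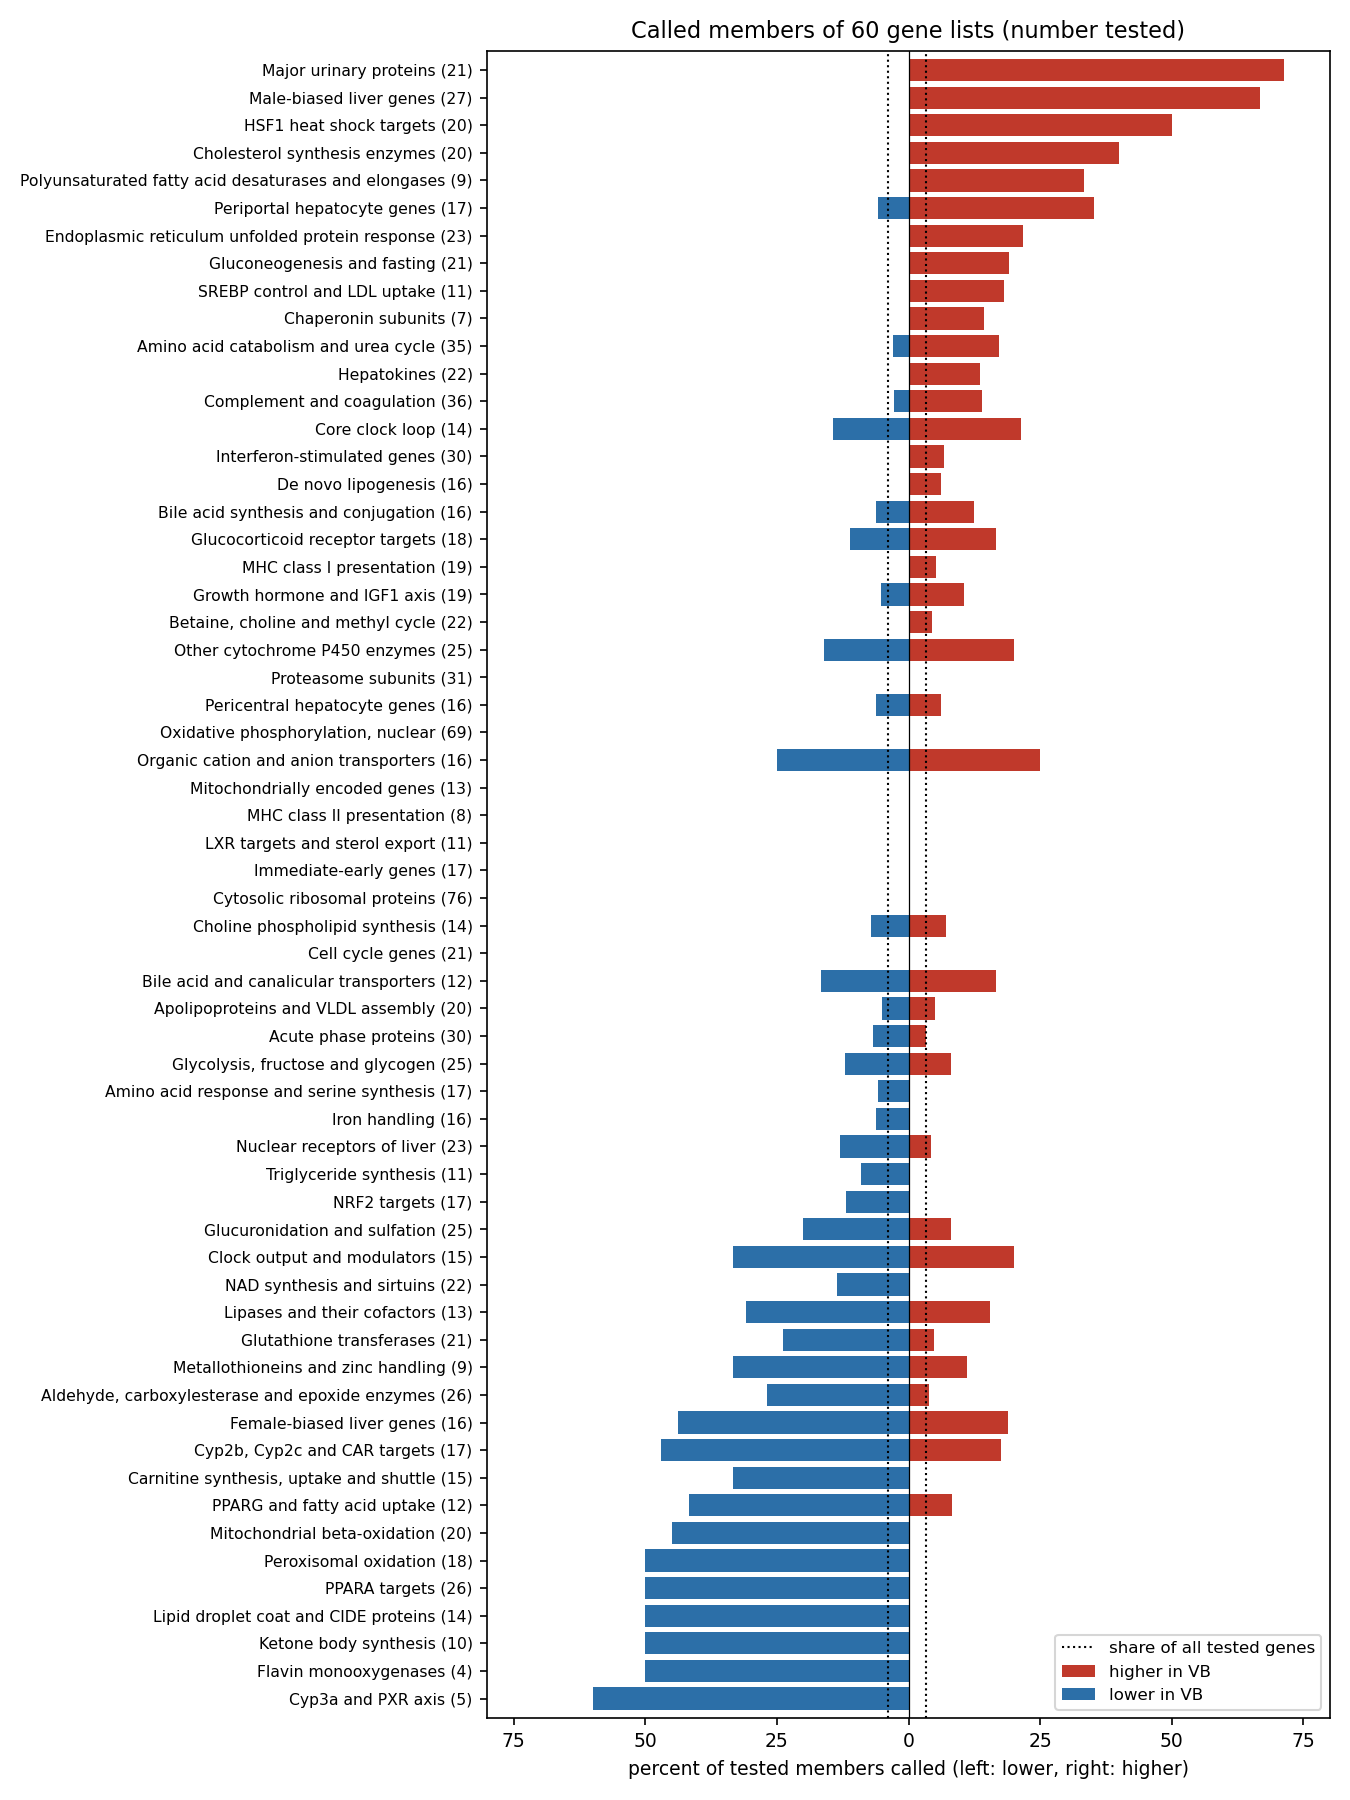
Percent of the tested members of each of 60 gene lists that were called higher (right) or lower (left) in VB mice on Western diet, with the number tested in parentheses. Dotted lines mark the shares among all tested genes, 3.33% higher and 3.86% lower. Major urinary proteins, male-biased genes and heat shock targets reach furthest to the right, and lists of fatty acid oxidation, lipid droplets and some of drug metabolism to the left. The list of other cytochrome P450 enzymes reaches to both sides.

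Genes that coat and enlarge lipid droplets fell in part in VB mice. Of 14 tested droplet coat and CIDE genes 7 fell, and all 14 estimates lay below 0, with a median log2 change of -0.58. Cidec, which encodes a protein that fuses lipid droplets (chromosome 6, 113424634 to 113435760, minus strand), was measured at 35.1, 74.6, 51.2, 159.9 and 50.1 CPM in the vehicle mice and 2.86, 12.1, 5.36, 13.8 and 8.03 CPM in the VB mice. Vehicle mouse 4 was the highest, and the highest VB mouse stayed below the lowest vehicle mouse. The fall was 8.76-fold (log2 change -3.13, SE 0.42, adjusted p = 0.000409). Plin2, the main droplet coat gene of hepatocytes (chromosome 4, 86648386 to 86670060, minus strand), was measured at 879, 1008, 711, 820.4 and 747 CPM in the vehicle mice and 503, 518, 548, 704 and 443 CPM in the VB mice. VB mouse 4 came nearest to the vehicle mice, of which it stayed just below the lowest, and the fall was 1.53-fold (log2 change -0.62, SE 0.12, adjusted p = 0.00215). Fitm2, needed for droplet formation, fell by 1.01 (SE 0.17) and Plin4 by 1.89 (SE 0.35) on the log2 scale, as did Cidea, a relative of Cidec, by 4.65 (SE 0.87). Cideb and the lipase inhibitor gene G0s2 did not pass, at -0.09 (SE 0.12) and -0.997 (SE 0.42), though G0s2 passed without VB mouse 4. The list counted 7 falls without vehicle mouse 4 and 6 without VB mouse 2 or VB mouse 5, the mice with fat cell traces. Its median was -0.51 with the clock covariate and -0.66 with the core clock score. Fat cell markers, which include Cidec, Lipe and the adipsin gene Cfd, summed to 279 CPM ± 138 in vehicle mice and 58.4 ± 30.6 in VB mice (SD, n = 5; exact permutation test, two-sided, p = 0.00794, adjusted p = 0.0317), with ranges of 120.3 to 476 and 22.9 to 105.6 and 3 of the 4 tested markers called lower. Cfd, Cidec and Lipe made up most of the sum in vehicle mice, where Adipoq, the defining marker, was at most 0.176 CPM. The other markers on the list, Adipoq, Lep, Plin1, Retn and Fabp4, did not share this fall and were highest in VB mice 2 and 5. Fabp4 was at 35.1 and 26.1 CPM in these 2 mice and at 8.98 to 21.0 CPM in vehicle mice. In VB mice 1, 3 and 4 it was lower, at 4.47, 9.70 and 6.18 CPM.

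Genes of fatty acid uptake and triglyceride assembly gave a mixed picture, with large falls in a few. Pparg, the adipogenic nuclear receptor (chromosome 6, 115360951 to 115490399, plus strand), was measured at 13.2, 11.3, 17.2, 24.97 and 21.1 CPM in the vehicle mice and 7.20, 5.93, 7.24, 4.89 and 2.79 CPM in the VB mice. VB mice stayed at or below 7.24 CPM and vehicle mice at or above 11.3 CPM, a 3.12-fold fall (log2 change -1.64, SE 0.22, adjusted p = 0.000246). Cd36, the fatty acid translocase (chromosome 5, 17781690 to 17888801, minus strand), was measured at 101, 158, 120.5, 158 and 143 CPM in the vehicle mice and 25.8, 44.5, 46.4, 58.05 and 21.5 CPM in the VB mice. The groups did not overlap, and VB mice 1 and 5 were the lowest. It fell 3.46-fold (log2 change -1.79, SE 0.32, adjusted p = 0.00204). Of 12 genes of fatty acid uptake 5 fell, with a median of -0.32, and 1 rose, the lipoprotein lipase gene Lpl, a call lost without any 1 of the vehicle mice or VB mouse 2 or 5; the VLDL receptor gene Vldlr fell by 2.33 (SE 0.48) and the transporter Slc27a1 by 0.72 (SE 0.14) on the log2 scale. Fabp1 and Slc27a5 did not pass, at -0.28 (SE 0.18) and -0.01 (SE 0.11).

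Of 11 genes of triglyceride synthesis in the list 1 fell (9.09%, against 3.86% of all tested genes). This was Mogat1, a monoacylglycerol acyltransferase gene (chromosome 1, 78510991 to 78538173, plus strand), measured at 4.66, 6.87, 5.29, 10.52 and 4.06 CPM in the vehicle mice and 0.931, 1.17, 1.80, 3.40 and 0.529 CPM in the VB mice. All VB mice were below all vehicle mice, with VB mouse 4 the closest, and the fall was 3.96-fold (log2 change -1.99, SE 0.36, adjusted p = 0.00174). Dgat2 and Agpat2, which act late and early in the pathway, were at -0.08 (SE 0.11) and 0.05 (SE 0.10). The acyltransferase gene Agpat9, known as Gpat3 in newer annotations and on that list only under the newer name, so not among the 11 (chromosome 5, 100845713 to 100899102, plus strand), was measured at 11.8, 19.6, 13.1, 11.2 and 16.1 CPM in the vehicle mice and 2.73, 2.23, 3.07, 4.84 and 1.11 CPM in the VB mice. It fell 5.14-fold without overlap (log2 change -2.36, SE 0.33, adjusted p = 0.000407). Of 13 lipases and cofactors 4 fell and 2 rose, with 0 rises without vehicle mouse 2, 3 or 5 or VB mouse 2 or 5, and with Lipe above and the adipose triglyceride lipase Pnpla2 at -0.66 (SE 0.11) on the log2 scale. Of 16 lipogenic genes 1 rose (6.25%, against 3.33% of all tested genes), the glucose sensor Mlxipl at 0.58 (SE 0.13), while Scd1 was at -0.11 (SE 0.37).

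**Figure D4:**
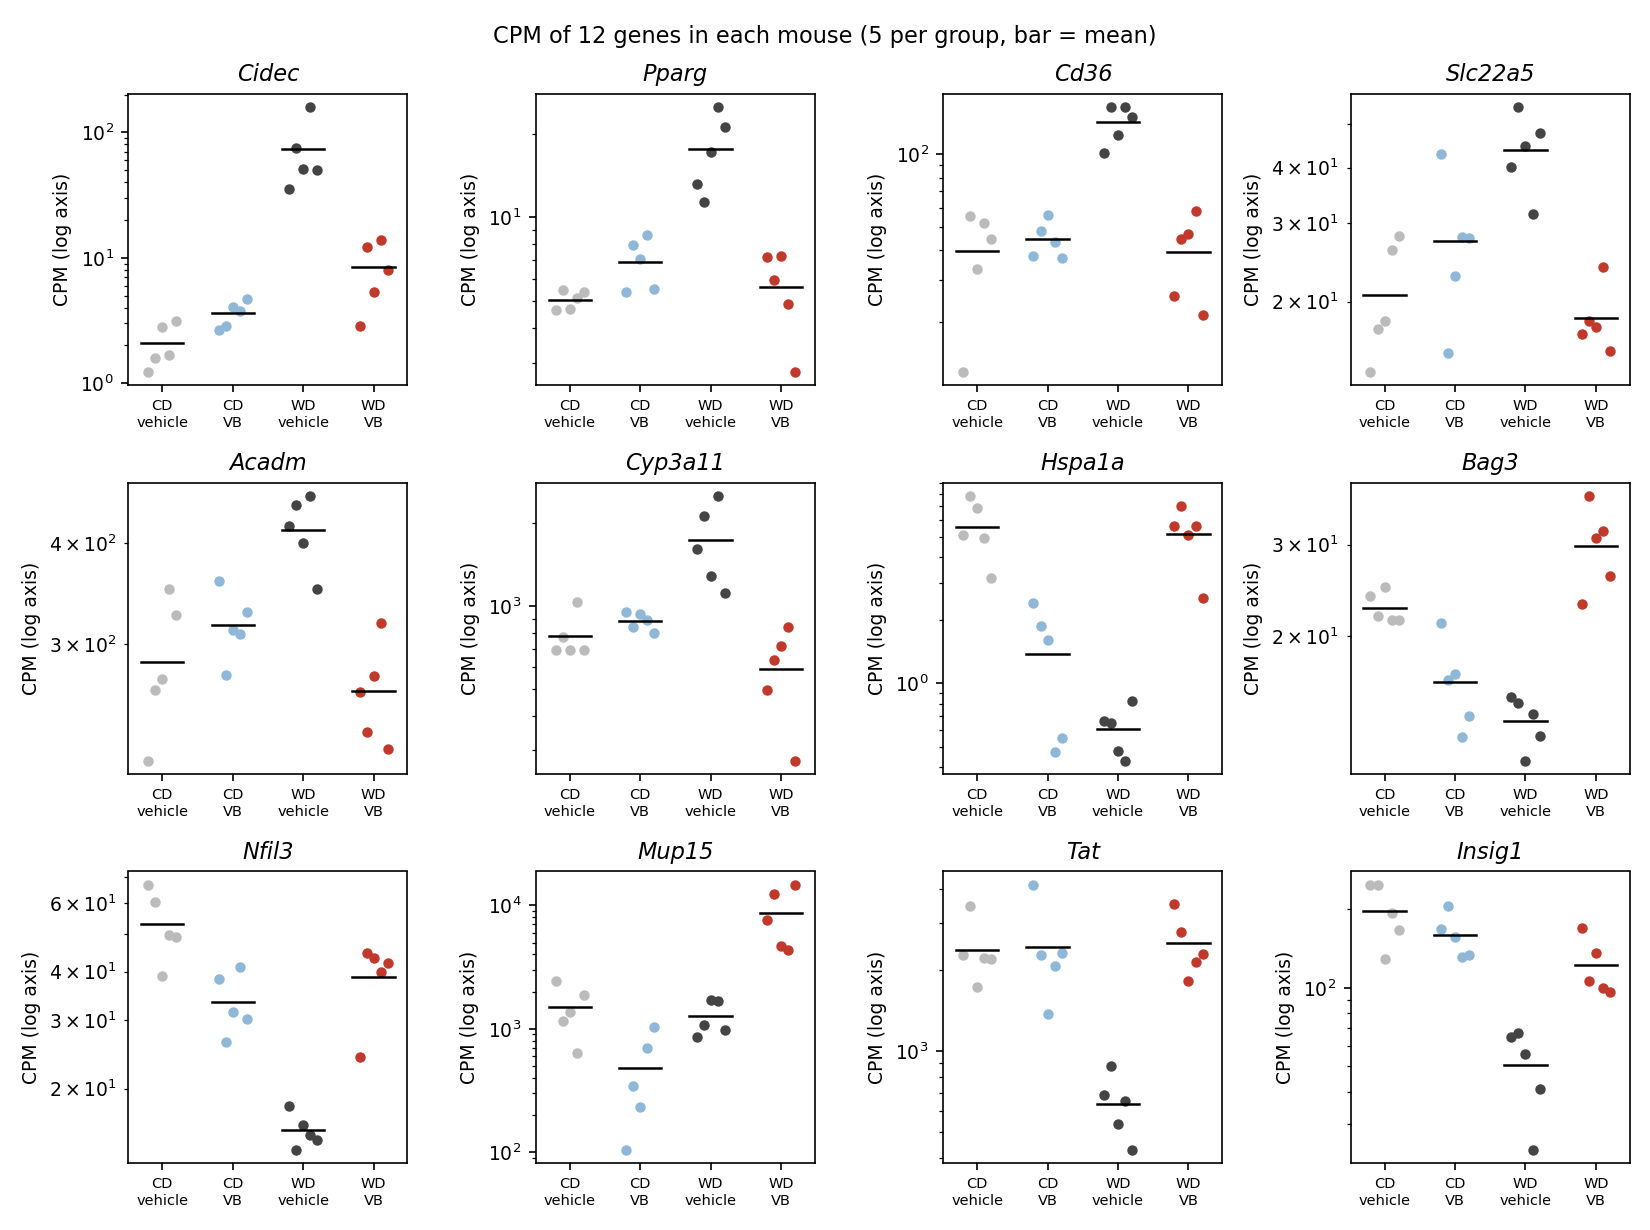
CPM (log axes) of 12 genes in each of the 20 mice, with a bar at the mean of 5 mice in each control diet (CD) and Western diet (WD) group. On Western diet the VB and vehicle points of all 12 genes do not overlap; Cidec, Pparg, Cd36, Slc22a5, Acadm and Cyp3a11 are lower with VB, and Hspa1a, Bag3, Nfil3, Mup15, Tat and Insig1 are higher.

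Carnitine genes were lower in part. Slc22a5, the carnitine transporter gene (chromosome 11, 53864542 to 53891660, minus strand), was measured at 40.1, 54.7, 44.6, 31.5 and 47.7 CPM in the vehicle mice and 16.9, 18.1, 17.5, 23.9 and 15.5 CPM in the VB mice. Vehicle mouse 4 was the lowest of its group and VB mouse 4 the highest of the other, and the groups still did not overlap. The fall was 2.38-fold (log2 change -1.25, SE 0.23, adjusted p = 0.00201). Bbox1, which encodes the last enzyme of carnitine synthesis and acts on gamma-butyrobetaine (chromosome 2, 110262697 to 110314560, minus strand), was measured at 163, 175, 143, 174 and 163 CPM in the vehicle mice and 130.2, 128, 118, 154 and 119 CPM in the VB mice. VB mouse 4 lay inside the vehicle range, and the fall was 1.26-fold (log2 change -0.33, SE 0.09, adjusted p = 0.0199). It did not pass without vehicle mouse 2, VB mouse 3 or VB mouse 5, with log2 changes from -0.40 to -0.30 on leaving out each mouse. In all, 5 of 15 tested carnitine genes fell, with a median of -0.22. The others were the acetyltransferase Crat at -0.65 (SE 0.18), the mitochondrial carrier Slc25a20 at -0.52 (SE 0.12) and Cpt1a, the gatekeeper of fatty acid import, at -0.51 (SE 0.15). Crat was not called without vehicle mouse 2 or 5 or VB mouse 1, 2 or 5, and Cpt1a only kept its call on leaving out vehicle mouse 4 among the 10 mice. Tmlhe and Aldh9a1, which act before Bbox1, did not pass, at -0.24 (SE 0.11) and -0.15 (SE 0.08). The list counted 5 falls without vehicle mouse 4, 2 without vehicle mouse 2 or VB mouse 5, and 3 without vehicle mouse 5 or VB mouse 1, 2 or 3. In the fit of the 2 Western diet groups it counted 1. Its median was -0.14 with the clock covariate and -0.395 with the core clock score.

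Oxidation genes of mitochondria and peroxisomes fell in part. Of 20 mitochondrial beta-oxidation genes 9 fell, and all 20 estimates lay below 0 (median -0.27). Acadm, the medium-chain acyl-CoA dehydrogenase gene (chromosome 3, 153922357 to 153944632, minus strand), was measured at 419, 445, 400.2, 457 and 351 CPM in the vehicle mice and 262, 234, 274, 318 and 223 CPM in the VB mice. It fell 1.58-fold without overlap (log2 change -0.66, SE 0.12, adjusted p = 0.00178). The dehydrogenase Hadh was at -0.55 (SE 0.11), the acyl-CoA synthetase Acsm3 at -0.76 (SE 0.12) and Decr1 at -0.39 (SE 0.09), while the very-long-chain dehydrogenase Acadvl and the thiolase Acaa2 did not pass at -0.13 (SE 0.08) and -0.18 (SE 0.09). That count was 10 without vehicle mouse 4 and 5 without vehicle mouse 2 or VB mouse 2, and 3 in the fit of 2 groups. Of 18 peroxisomal genes 9 fell, with 13 estimates below 0 and 5 above (median -0.30). The very-long-chain transporter Abcd2 was at -1.91 (SE 0.30) and the peroxisome proliferation factor Pex11a at -1.01 (SE 0.20), with Cat and Phyh near 0, at 0.02 (SE 0.07) and -0.02 (SE 0.08).

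Targets of PPARA, the fatty acid sensor of the fasting liver, fell in part. Of 26 tested targets 13 fell, 25 estimates lay below 0 and the median was -0.77, against -0.016 over all genes. On the log2 scale the acyl-CoA thioesterase gene Acot2 was at -1.64 (SE 0.29) and Acot3 at -2.95 (SE 0.68), both called. Cyp4a10, a fatty acid hydroxylase, was at -1.41 (SE 0.51) and passed only without VB mouse 4. These lists share members, among them Cpt1a, and the count was also 13 without vehicle mouse 4. With the clock covariate the PPARA median was -0.30 and the peroxisomal one -0.07. They were -0.84 and -0.175 with the core clock score. Of 10 ketone body genes 5 fell. Among them were the monocarboxylate transporter Slc16a7 at -1.23 (SE 0.20) and the hydroxybutyrate dehydrogenase Bdh1 at -0.46 (SE 0.12), which was not called without VB mouse 2. The count for ketone genes was 3 without VB mouse 2 and 2 in the fit of the 2 Western diet groups.

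Drug-metabolizing genes formed another large block of falls, with rises among them. Cyp3a11, the main xenobiotic P450 of mouse liver (chromosome 5, 145854426 to 145879964, minus strand), was measured at 1613, 2114, 1280.0, 2507 and 1118 CPM in the vehicle mice and 497, 639.8, 713, 839 and 276 CPM in the VB mice. VB mouse 5 was the lowest and the highest reached 839 CPM, under the lowest vehicle mouse. The fall was 2.91-fold (log2 change -1.54, SE 0.24, adjusted p = 0.000748). Its regulator Nr1i2 (PXR) was at -0.55 (SE 0.11) and the related receptor gene Nr1i3 (CAR) at -0.68 (SE 0.18), the latter not passing without vehicle mouse 2 or 4 or VB mouse 2 or 5. Of 5 tested Cyp3a and PXR genes 3 fell, and of 17 Cyp2b, Cyp2c and CAR targets 8 fell and 3 rose (median -0.48). Other P450 genes moved in both directions: of 25 tested, 5 rose and 4 fell (median -0.10). Leaving out 1 mouse gave 1 to 4 rises and 4 to 5 falls in that list, and the fit of the 2 Western diet groups gave 1 and 3. Cyp2b9 (chromosome 7, 26173411 to 26210661, plus strand) was measured at 44.97, 57.99, 23.3, 62.03 and 9.99 CPM in the vehicle mice and 0, 0.106, 0.491, 1.13 and 0 CPM in the VB mice. VB mice 1 and 5 had no count, which allows up to 0.186 and 0.144 CPM (3 counts in each library, counting error only), and the highest VB mouse had 1.13 CPM. Means were 39.7 CPM ± 22.4 and 0.346 ± 0.484 (SD, n = 5) with an adjusted p of 0.00309; the fitted fold depends on the prior count and is not given. Cyp2b10 fell by 2.67 (SE 0.53), P450 reductase Por by 0.95 (SE 0.16) on the log2 scale. Against this, Cyp2c40, Cyp2c69 and Cyp2c70 rose by 2.89 (SE 0.58), 3.15 (SE 0.83) and 0.95 (SE 0.20). Cyp2c69 was not called without vehicle mouse 1, 2, 3 or 4 or VB mouse 5. Reads of these P450 genes can match several family members, and how they were counted is not given, so single values are uncertain.

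Among conjugating enzymes more genes fell than rose. Of 21 glutathione transferase genes 5 fell and 1 rose, of 25 glucuronidation and sulfation genes 5 fell and 2 rose, and of 26 aldehyde, carboxylesterase and epoxide genes 7 fell and 1 rose. Gsta1 (chromosome 9, 78230656 to 78242684, plus strand), a near copy of other Gsta genes and thus uncertain, was measured at 8.58, 14.1, 17.7, 32.5 and 8.13 CPM in the vehicle mice and 1.99, 0.636, 2.05, 6.59 and 0.529 CPM in the VB mice. VB mouse 4 was far above its group, and the fall was 6.82-fold (log2 change -2.77, SE 0.53, adjusted p = 0.00331). The glutathione transferase count was 3 without vehicle mouse 2 or 4 or VB mouse 2, 3 or 5, and 9 without VB mouse 4, and the count of rises was 3 without vehicle mouse 4 and 0 without vehicle mouse 1 or 2 or VB mouse 1, 2 or 5. In the fit of the 2 Western diet groups 2 glutathione transferase and 2 glucuronidation genes fell. Abcc3, a basolateral pump for conjugates and bile acids (chromosome 11, 94343295 to 94392997, minus strand), was measured at 251, 227, 234, 105 and 258 CPM in the vehicle mice and 77.99, 96.2, 104, 102 and 60.9 CPM in the VB mice. Vehicle mouse 4, with 105.3 CPM, was the exception in its group and only just above VB mouse 3. The fall was 2.44-fold (log2 change -1.28, SE 0.21, adjusted p = 0.00102). Of 12 bile acid and canalicular transporters 2 fell (16.7%, against 3.86% of all tested genes) and 2 rose (16.7%, against 3.33%). The bile salt export pump Abcb11 was among the latter, at 0.58 (SE 0.14). The count of falls was 1 without vehicle mouse 1, 2 or 3 or VB mouse 2, 3, 4 or 5, and the fit of 2 groups called 1 in each direction. The aldehyde dehydrogenase Aldh3a2 was at -0.87 (SE 0.15), epoxide hydrolase Ephx1 at -0.63 (SE 0.11), the transferase Ugt1a1 at -0.52 (SE 0.11) and the quinone reductase Nqo1 at -1.05 (SE 0.22). With the clock covariate the medians of the Cyp3a, glutathione transferase and aldehyde lists were 0.18, 0.04 and 0.02, no longer below 0. They stayed below 0 with the core clock score, at -0.25, -0.10 and -0.105.

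Genes of trimethylammonium chemistry outside the carnitine list differed by group. Calls made up 4.55% of betaine, choline and methyl genes and 50% of flavin monooxygenase genes, against 7.19% of all tested genes. Of 22 genes of betaine, choline and methyl metabolism 1 passed, Cbs, the first enzyme of transsulfuration, which rose by 0.40 (SE 0.11) on the log2 scale and was not called in the fit of the 2 Western diet groups, without vehicle mouse 5 or without VB mouse 1, 2, 3 or 5. Without vehicle mouse 4 the list counted 4 falls beside this rise. Bhmt, which uses betaine as methyl donor, was at 0.02 (SE 0.19). Of 4 tested flavin monooxygenase genes, the family that oxidizes trimethylamine, 2 fell. Fmo1 (chromosome 1, 162829561 to 162866610, minus strand) was measured at 90.4, 100.1, 103, 136 and 123 CPM in the vehicle mice and 71.8, 69.8, 84.9, 92.6 and 60.4 CPM in the VB mice. VB mouse 4 overlapped the vehicle range, and the fall was 1.46-fold (log2 change -0.54, SE 0.12, adjusted p = 0.00557). Fmo2 fell by 1.30 (SE 0.27) on the log2 scale, and Fmo5 was at -0.31 (SE 0.10) and passed only without vehicle mouse 1 or 4 or VB mouse 1 or 4.

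The 2 ends of the choline branch of phosphatidylcholine synthesis moved apart. Chka, the choline kinase gene (chromosome 19, 3851773 to 3894369, plus strand), was measured at 26.2, 20.9, 18.4, 9.37 and 15.7 CPM in the vehicle mice and 29.2, 44.9, 43.04, 35.9 and 59.3 CPM in the VB mice. The lowest VB mouse lay just above the highest vehicle mouse, and vehicle mouse 4 was the lowest of all. It rose 2.33-fold (log2 change 1.22, SE 0.19, adjusted p = 0.000628). Chpt1, the cholinephosphotransferase gene (chromosome 10, 88452745 to 88504073, minus strand), was measured at 437, 487, 428, 500.4 and 394 CPM in the vehicle mice and 273, 307, 255, 343 and 241 CPM in the VB mice. All VB mice were below all vehicle mice, a 1.58-fold fall (log2 change -0.66, SE 0.10, adjusted p = 0.000494). These were the 2 genes called among 14 of the list, 7.14% each way, against 3.33% higher and 3.86% lower of all tested genes. Pemt, of the methylation route, was at 0.13 (SE 0.11). Of 16 organic cation and anion transporters 4 rose and 4 fell, with Slc22a7 at 0.90 (SE 0.18), Slc22a28 at 0.82 (SE 0.16) and Slc22a29 at -2.202 (SE 0.41).

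Heat shock genes rose in part. HSF1 is the transcription factor that drives cytosolic chaperone genes, and it binds inverted repeats of the 5-base unit nGAAn. Of 20 tested targets 10 rose, with a median log2 change of 0.39 and 17 estimates above 0. The 150 bases before the RefSeq start are shown for 5 of these risers, since they moved together (GRCm38.p6, 5′ to 3′ on the strand of the gene). These had the smallest p among risers with a promoter entry, with a chromosome left out of the choice. Capitals mark GAANNTTC or TTCNNGAA, each its own reverse complement and searched without further limits.

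Bag3: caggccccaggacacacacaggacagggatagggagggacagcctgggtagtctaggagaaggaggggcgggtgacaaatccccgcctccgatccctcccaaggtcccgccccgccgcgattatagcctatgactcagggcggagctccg
Hspa1a: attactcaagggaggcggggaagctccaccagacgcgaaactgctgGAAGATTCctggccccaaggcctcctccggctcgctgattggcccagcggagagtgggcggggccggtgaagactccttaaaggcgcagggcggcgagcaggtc
Dnajb1: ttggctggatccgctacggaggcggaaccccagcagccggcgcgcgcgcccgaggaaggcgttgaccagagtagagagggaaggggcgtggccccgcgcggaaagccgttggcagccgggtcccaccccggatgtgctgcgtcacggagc
Hspa1b: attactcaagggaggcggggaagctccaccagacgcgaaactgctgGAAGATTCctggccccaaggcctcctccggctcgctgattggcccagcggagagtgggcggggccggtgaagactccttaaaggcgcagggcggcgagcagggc
Hsph1: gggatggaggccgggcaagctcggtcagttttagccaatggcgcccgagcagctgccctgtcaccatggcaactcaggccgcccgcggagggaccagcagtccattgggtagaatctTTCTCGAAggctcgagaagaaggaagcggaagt

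Coordinates are chr7:128523433-128523582 for Bag3 and chr8:83608025-83608174 for Dnajb1 on the plus strand, and chr17:34972157-34972306 for Hspa1a, chr17:34959239-34959388 for Hspa1b and chr5:149636337-149636486 for Hsph1 on the minus strand. Hspa1a and Hspa1b matched at 149 of 150 bases and both hold 1 match that begins 104 bases before the start, and Hsph1 holds 1 that begins 33 bases before it. No match was found for Bag3 and Dnajb1, which says only that these letters are not in the window. A match was present in 3 of the 9 called targets with an entry, in 3 of the 6 uncalled ones with an entry and in 7.81% of 27025 promoters of the same length.

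Hspa1a, which encodes an inducible Hsp70 (chromosome 17, 34969190 to 34972156, minus strand), was measured at 0.660, 0.648, 0.476, 0.429 and 0.824 CPM in the vehicle mice and 5.59, 6.99, 5.11, 5.61 and 2.55 CPM in the VB mice. All 5 vehicle mice were below 1 CPM, and the lowest VB mouse, mouse 5, was well above them. The rise was 8.31-fold (log2 change 3.05, SE 0.39, adjusted p = 0.000132). Its near-identical neighbour Hspa1b (chromosome 17, 34956436 to 34959238, minus strand) was measured at 17.9, 20.5, 6.07, 6.44 and 6.97 CPM in the vehicle mice and 66.2, 74.9, 80.5, 92.5 and 65.7 CPM in the VB mice. Vehicle mice 1 and 2 were above the other 3, and every VB mouse was far above both, a rise of 6.48-fold (log2 change 2.70, SE 0.41, adjusted p = 0.000893). Reads of this pair can match both genes, so their split is uncertain. Bag3, an Hsp70 cochaperone of selective autophagy (chromosome 7, 128523616 to 128546981, plus strand), was measured at 15.3, 14.9, 11.5, 14.2 and 12.8 CPM in the vehicle mice and 23.04, 37.2, 30.9, 31.8 and 26.1 CPM in the VB mice. The groups were apart by more than the spread of vehicle mice, and the rise was 2.17-fold (log2 change 1.12, SE 0.13, adjusted p = 7.26e-05). Dnajb1, the Hsp40 partner (chromosome 8, 83608193 to 83612653, plus strand), was measured at 25.5, 27.2, 19.6, 24.3 and 18.1 CPM in the vehicle mice and 48.9, 60.7, 45.99, 52.2 and 34.9 CPM in the VB mice. It rose 2.11-fold without overlap (log2 change 1.08, SE 0.15, adjusted p = 0.000266).

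Among the 10 heat shock targets that did not pass were the abundant Hsp90ab1 at 0.14 (SE 0.13) and Dnaja1 at 0.19 (SE 0.11), the latter called without vehicle mouse 4. The heat shock count was 12 without vehicle mouse 4, 8 without VB mouse 2 and 8 in the fit of 2 groups. Its median was 0.23 with the clock covariate and 0.215 with the core clock score. In the endoplasmic reticulum, 5 of 23 genes of the unfolded protein response rose, with a median of 0.30. Herpud1, an ER stress gene of protein disposal (chromosome 8, 94386438 to 94395377, plus strand), was measured at 792, 690.3, 514, 514 and 422 CPM in the vehicle mice and 917, 1113, 1145, 1332 and 1206 CPM in the VB mice. VB mouse 1 was the lowest of its group, still above all vehicle mice, and the rise was 1.95-fold (log2 change 0.96, SE 0.17, adjusted p = 0.00156). The cochaperone Dnajb9 was at 0.86 (SE 0.16) and Manf at 0.75 (SE 0.20), the latter not called without vehicle mouse 2 or VB mouse 5, while Hsp90b1 and Calr did not pass, at 0.30 (SE 0.14) and 0.18 (SE 0.09). This count was 5 without vehicle mouse 4 and 2 without vehicle mouse 2. It was 3 without vehicle mouse 5 or VB mouse 2, 3 or 5, and 2 in the fit of 2 groups. The median of this list was -0.09 with the clock covariate and -0.06 with the core clock score.

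Among clock genes, members of the positive limb rose. The loop consists of activators encoded by Arntl, Clock and Npas2 and of repressors of the Per, Cry and Nr1d families, whose transcripts peak at other hours of the day. Nfil3, an output repressor (chromosome 13, 52967209 to 52981073, minus strand), was measured at 18.04, 13.9, 16.2, 15.2 and 14.8 CPM in the vehicle mice and 24.2, 44.6, 43.5, 40.04 and 42.1 CPM in the VB mice. VB mouse 1 was well below the other 4 VB mice, yet above all vehicle mice, and the rise was 2.49-fold (log2 change 1.31, SE 0.16, adjusted p = 0.000103). Arntl (chromosome 7, 113207465 to 113314126, plus strand) was measured at 3.65, 2.04, 2.44, 1.65 and 0.604 CPM in the vehicle mice and 4.59, 6.73, 5.56, 5.51 and 15.6 CPM in the VB mice. VB mouse 5 was the highest of all, and the rise was 3.59-fold (log2 change 1.84, SE 0.35, adjusted p = 0.00286). Of 14 core loop genes 3 rose and 2 fell, with Clock at 0.52 (SE 0.11) and Npas2 at 2.03 (SE 0.54). Npas2 was not called without vehicle mouse 1, 2 or 5 or VB mouse 2 or 5. The count of falls was 3 without vehicle mouse 4, 1 without vehicle mouse 1, 2 or 3 or VB mouse 2, and 0 without vehicle mouse 5 or VB mouse 5. The repressor gene Nr1d1 did not pass, at 0.80 (SE 0.42). Of 15 output genes 3 rose and 5 fell (median -0.57), including the cell cycle kinase Wee1 at -1.92 (SE 0.32) and the glucocorticoid-induced Tsc22d3 at 1.47 (SE 0.25). The hour of collection is not given, so its part in these values and in the clock score was not tested.

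Pheromone carriers and other genes that male mice express at a higher level than females rose in part. Major urinary proteins (Mup) are liver-made lipocalins excreted in urine, and pulses of growth hormone are known to drive many of them. Their genes took 9.53% to 12.7% of counts in vehicle mice and 15.9% to 25.2% in VB mice, with means of 11.01% ± 1.28 and 20.3% ± 4.46 (SD, n = 5; exact permutation test, two-sided, p = 0.00794, adjusted p = 0.0317). Of 21 tested Mup genes 15 rose and all 21 estimates lay above 0 (median 1.25). Mup15 (chromosome 4, 61435790 to 61439743, minus strand) was measured at 861, 1078, 1709, 1670.3 and 987 CPM in the vehicle mice and 7583, 12409, 4714, 4337 and 14680.0 CPM in the VB mice. VB mice 5 and 2 were the highest, and VB mice 3 and 4 stayed above all vehicle mice. The rise was 6.94-fold (log2 change 2.79, SE 0.55, adjusted p = 0.00475). Mup20, the male pheromone darcin (chromosome 4, 62050234 to 62054158, minus strand), was measured at 5857, 5853, 7381, 10276 and 6798 CPM in the vehicle mice and 15647, 16581, 8318, 10677 and 18545 CPM in the VB mice. VB mouse 3 lay inside the vehicle range, which vehicle mouse 4 extended upward, and the rise was 1.93-fold (log2 change 0.95, SE 0.21, adjusted p = 0.00812). Mup genes are nearly identical in sequence, so the sum is firmer than any member. With Mup genes left out of the library sizes, 916 genes were called.

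Of 27 male-biased genes 18 rose, with a median of 0.93. Moxd1, a monooxygenase-like gene (chromosome 10, 24223517 to 24302790, plus strand), was measured at 0.132, 0.747, 12.3, 2.29 and 13.1 CPM in the vehicle mice and 166, 216, 29.2, 23.3 and 403 CPM in the VB mice. Values spread widely in both groups, and VB mice 5, 2 and 1 stood far above VB mice 3 and 4. The rise was 29.7-fold (log2 change 4.89, SE 1.19, adjusted p = 0.0178). Elovl3, a fatty acid elongase (chromosome 19, 46131897 to 46135694, plus strand), was measured at 259, 312, 319, 173 and 222 CPM in the vehicle mice and 417, 796, 411, 497 and 965 CPM in the VB mice. The order of VB mice was again led by mice 5 and 2, without overlap with vehicle mice, and the rise was 2.40-fold (log2 change 1.26, SE 0.22, adjusted p = 0.00156). The steroid dehydrogenase Hsd3b5 was at 1.38 (SE 0.22) and the transporter Slco1a1 at 0.67 (SE 0.12), while Cyp2d9 did not pass at -0.31 (SE 0.11). Of 16 tested female-biased genes 7 fell and 3 rose (median -0.87); Cyp2b9 and Abcd2 were among those that fell, and Cyp2c40 and Cyp2c69 among those that rose. The count of rises was 3 as given and 1 without vehicle mouse 1, 2, 3 or 4 or without VB mouse 5.

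In the growth hormone pathway itself 10.5% of genes were called higher and 5.26% lower, against 3.33% and 3.86% of all tested genes. Of 19 genes of the growth hormone and IGF1 axis 2 rose and 1 fell, with Igfbp2 at 0.65 (SE 0.15) and Igfbp1 at 1.84 (SE 0.52); Igfbp1 did not pass without any of the 5 vehicle mice or VB mouse 1 or 5. The receptor gene Ghr was at -0.01 (SE 0.07). With the clock covariate the Mup median was 0.01, that of male-biased genes 0.16 and that of female-biased genes -0.72. They were 0.34, 0.37 and -0.44 with the core clock score.

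Some genes of gluconeogenesis and amino acid breakdown rose. Tat, tyrosine aminotransferase (chromosome 8, 109990437 to 109999803, plus strand), was measured at 686, 877, 535, 653 and 429.9 CPM in the vehicle mice and 3528, 2776, 1829, 2155 and 2298 CPM in the VB mice. The lowest VB mouse had more than the highest vehicle mouse, and VB mouse 1 was the highest. The rise was 3.96-fold (log2 change 1.98, SE 0.26, adjusted p = 0.000246). Ddc, aromatic amino acid decarboxylase (chromosome 11, 11814101 to 11898144, minus strand), was measured at 40.4, 47.97, 44.01, 40.99 and 42.6 CPM in the vehicle mice and 60.5, 109, 67.8, 71.8 and 104 CPM in the VB mice. Vehicle mice were close together, VB mice 2 and 5 were the highest, and the rise was 1.91-fold (log2 change 0.94, SE 0.13, adjusted p = 0.000243). Klf15, a fasting-induced factor of amino acid breakdown (chromosome 6, 90462576 to 90475238, plus strand), was measured at 216, 237, 195, 199 and 154 CPM in the vehicle mice and 391, 326, 297, 309 and 318 CPM in the VB mice. It rose 1.64-fold without overlap (log2 change 0.71, SE 0.14, adjusted p = 0.00365). Of 21 gluconeogenic and fasting genes 4 rose (19%, median 0.37), with Pck1, the cytosolic PEP carboxykinase, at 0.73 (SE 0.17). Of 35 genes of amino acid breakdown and the urea cycle 6 rose (17.1%) and 1 fell (2.86%), against 3.33% and 3.86% of all tested genes. The median of this second list was 0.04, with 19 estimates above 0 and 16 below. Its count of rises was 4 without vehicle mouse 4 and 2 without vehicle mouse 2, without VB mouse 1 and in the fit of 2 groups. The pyruvate carboxylase gene Pcx did not pass, at -0.34 (SE 0.14) (it did without vehicle mouse 4), nor did Cps1, at 0.40 (SE 0.18). Of 18 targets of the glucocorticoid receptor, a list that shares Tat with the above, 3 rose (16.7%) and 2 fell (11.1%), with a median of 0.21. The falls were Mt1 at -2.25 (SE 0.62) and Mt2 at -2.42 (SE 0.70), and the count of falls was 0 without vehicle mouse 2, 4 or 5 or VB mouse 2, 3 or 5, 4 without VB mouse 4 and 1 in the fit of the 2 groups. The count of rises was 5 without VB mouse 3.

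Glycogen genes moved in both directions. Ppp1r3b, a glycogen-targeting subunit of protein phosphatase (chromosome 8, 35375739 to 35388139, plus strand), was measured at 139.6, 111, 108, 91.6 and 114 CPM in the vehicle mice and 185, 237, 229, 176 and 206 CPM in the VB mice. VB mice lay above all vehicle mice, and the rise was 1.83-fold (log2 change 0.87, SE 0.13, adjusted p = 0.000407); its relative Ppp1r3c was at 1.51 (SE 0.23). Gys2, liver glycogen synthase (chromosome 6, 142422613 to 142473109, minus strand), was measured at 183, 197, 186, 186 and 205 CPM in the vehicle mice and 135, 92.4, 111, 129 and 122 CPM in the VB mice. Vehicle mice were tightly grouped above all VB mice, and it fell 1.63-fold (log2 change -0.70, SE 0.12, adjusted p = 0.00088). Of 25 genes of glycolysis, fructose and glycogen 2 rose (8%) and 3 fell (12%), against 3.33% and 3.86% of all tested genes. The falls included Ugp2, which makes UDP-glucose and was not called without vehicle mouse 5.

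Cholesterol synthesis genes rose in part. Insig1, which retains SREBP in the endoplasmic reticulum and is itself an SREBP target (chromosome 5, 28071363 to 28078662, plus strand), was measured at 64.995, 67.3, 55.8, 24.04 and 40.9 CPM in the vehicle mice and 169.5, 106, 136, 100.04 and 96.8 CPM in the VB mice. Vehicle mouse 4 was the lowest, no vehicle mouse reached the VB range, and the rise was 2.40-fold (log2 change 1.26, SE 0.24, adjusted p = 0.00303). Mvd, mevalonate decarboxylase (chromosome 8, 122433601 to 122443422, minus strand), was measured at 2.2002, 2.59, 2.74, 2.22 and 1.87 CPM in the vehicle mice and 5.46, 5.25, 5.81, 6.07 and 6.63 CPM in the VB mice. Levels were low but the groups were well apart, a 2.52-fold rise (log2 change 1.33, SE 0.25, adjusted p = 0.00232). Of 20 enzymes 8 rose, with a median of 0.49 and 16 estimates above 0; Dhcr7 was at 0.74 (SE 0.16), Cyp51 at 0.64 (SE 0.14) and Tm7sf2 at 0.57 (SE 0.09), while Ebp did not pass at 0.12 (SE 0.09). The count was 5 without vehicle mouse 1 or 4 or VB mouse 1 or 3, and 5 in the fit of 2 groups. The median was 0.83 with the clock covariate and 0.89 with the core clock score. Targets of the oxysterol receptor LXR gave 0 calls of 11 in edgeR, 0 in DESeq2 and 0 at an unadjusted p under 0.05, with Abcg5 at 0.20 (SE 0.16). In bile acid metabolism the alternative-pathway enzyme Cyp7b1 and the muricholic acid enzyme Cyp2c70 were at 1.30 (SE 0.35) and 0.95 (SE 0.20), both called higher (Cyp7b1 not without vehicle mouse 1, 2 or 5 or VB mouse 2 or 5), and Hsd17b4 fell by 0.43 (SE 0.08) on the log2 scale. The uptake transporter Slc10a1 was at 0.16 (SE 0.09).

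Among secreted and metal-binding proteins, calls were seen in both directions. Of 36 complement and coagulation genes 5 rose (13.9%) and 1 fell (2.78%), against 3.33% and 3.86% of all tested genes. C9, the pore-forming component (chromosome 15, 6445327 to 6498751, plus strand), was measured at 389.6, 368, 431, 325 and 371 CPM in the vehicle mice and 671, 577, 450.1, 439 and 694 CPM in the VB mice. VB mice 3 and 4 were just above the highest vehicle mouse and the other 3 far above it, a 1.502-fold rise (log2 change 0.59, SE 0.13, adjusted p = 0.00587). C8b and C6 of the same complex were at 0.93 (SE 0.17) and 0.93 (SE 0.20); C6, C8b and C9 are also on the male-biased list. Of 30 acute phase genes 1 rose (3.33%) and 2 fell (6.67%), near the 3.33% and 3.86% of all tested genes, with Orm3 at -1.73 (SE 0.35) and Saa3 at -0.90 (SE 0.21). Their count of falls was 8 without VB mouse 1, and that of rises 0 without vehicle mouse 1, 2, 3 or 5 or VB mouse 2 or 5. Mt1, a metallothionein (chromosome 8, 94179082 to 94180327, plus strand), was measured at 247, 471, 234, 897 and 520.1 CPM in the vehicle mice and 162, 47.8, 49.5, 202 and 36.5 CPM in the VB mice. The spread was wide in both groups, and the fall of 4.76-fold (log2 change -2.25, SE 0.62, adjusted p = 0.0362) did not pass without vehicle mouse 2, 4 or 5 or VB mouse 2, 3 or 5, with log2 changes from -2.68 to -1.89 on leaving out each mouse. The metallothionein and zinc list counted 3 falls of 9 (33.3%), and 1 when any of these 6 mice was left out. It also held 1 rise (11.1%). Nmrk1, a nicotinamide riboside kinase (chromosome 19, 18631950 to 18652428, plus strand), was measured at 30.6, 35.4, 43.2, 80.6 and 74.1 CPM in the vehicle mice and 15.3, 20.2, 19.1, 23.6 and 15.1 CPM in the VB mice. It fell 2.82-fold without overlap (log2 change -1.496, SE 0.26, adjusted p = 0.0016). Nampt, the rate-limiting enzyme of NAD salvage, fell by 0.57 (SE 0.11) on the log2 scale, and 3 of 22 NAD genes (13.6%) fell in all.

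Several large lists gave no or few calls. In edgeR 0 of 69 nuclear oxidative phosphorylation genes, 0 of 13 mitochondrially encoded genes, 0 of 76 cytosolic ribosomal protein genes, 0 of 31 proteasome genes, 0 of 21 cell cycle genes and 0 of 8 MHC class II genes were called. At an unadjusted p under 0.05 they held 1, 0, 3, 1, 1 and 2 genes, and DESeq2 and limma-voom called 0 in each. Their median log2 changes were -0.05, -0.10, 0.10, 0.02, -0.11 and -0.30, in the same order. Estimates above 0 numbered 14, 1, 70, 20, 6 and 0. Without vehicle mouse 4, 13 ribosomal protein genes were higher. Of 30 interferon-stimulated genes 2 rose (6.67%, against 3.33% of all tested genes), Irf7 at 0.44 (SE 0.11) and Irgm1 at 0.37 (SE 0.09). Their count was 4 without vehicle mouse 4, 1 without VB mouse 1 and 0 in the fit of 2 groups. Markers of Kupffer cells summed to 291 CPM ± 134 in vehicle and 273 ± 82.4 in VB mice, and those of stellate cells to 203 ± 22.1 and 161 ± 62.5 (SD, n = 5; exact permutation test, two-sided, p = 0.825 and 0.214, adjusted p = 0.873 and 0.49). The sum of 6 pancreatic acinar markers was 20.4 CPM ± 3.62 in vehicle and 37.6 ± 3.11 in VB mice, without overlap (exact permutation test, two-sided, p = 0.00794, adjusted p = 0.0317). Nearly all of this sum was Cela1, at 16.1 to 24.6 CPM in vehicle and 34.9 to 42.4 CPM in VB mice, so it describes that gene. Of these 6 only Cela1 had enough counts to be tested, and 1 was at 0 in every Western diet mouse.

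The last question was whether VB did the same on the control diet. There 19 genes (0.151%) were called in the same fit. Of the 907 genes called on the Western diet 8 were also called on the control diet, or 0.882% of the one and 42.1% of the other set, all 8 in the opposite direction. Of the 420 genes that rose on the Western diet 336 (80%) had an estimate below 0 on the control diet, with a median of -0.18, and of the 487 that fell 374 (76.8%) had one above 0, with a median of 0.17, whereas the median over all tested genes was 0.00159. The 2 comparisons share no mice but share the fit. The clock score also moved the other way on the control diet, with a mean of -1.22 in vehicle and -0.281 in VB mice, and its part in these values was not tested. Hspa1a was among the genes that changed on both diets, falling by 1.996 (SE 0.35) on the log2 scale on the control diet (adjusted p = 0.0165). Its near copy Hspa1b, with which it may share reads, was at -0.45 (SE 0.38) there and did not pass (adjusted p = 0.714). Slc22a5 was at 0.40 (SE 0.23) there, Cidec at 0.80 (SE 0.50), Pparg at 0.45 (SE 0.23) and Tat at 0.04 (SE 0.25), none of which passed. The Mup median was -0.86 on the control diet, that of PPARA targets 0.20 and that of heat shock targets -0.07. The difference of the VB effects between the diets was itself called in 964 genes (7.64%), 458 of them higher (3.63%) and 506 lower (4.01%) on the Western diet. Without vehicle mouse 4 of the Western diet this count was 1702 and the control diet count 52; without vehicle mouse 5 of the Western diet the latter was 29.

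**Figure D5:**
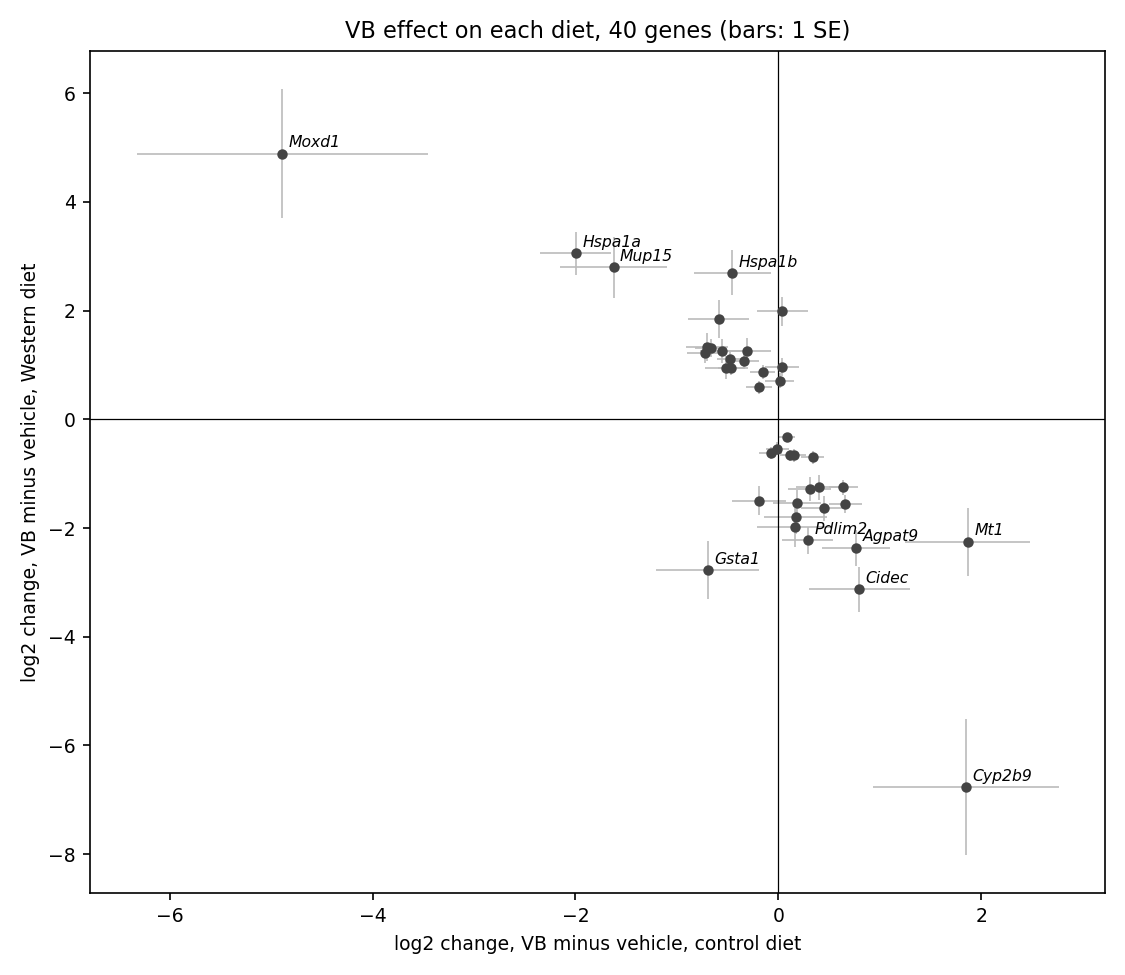
Log2 change of VB against vehicle on Western diet (vertical) and on control diet (horizontal) for the 40 genes given mouse by mouse, with bars of 1 SE; labels mark the largest changes. Most genes higher with VB on Western diet lie left of 0 and most lower ones right of it, with Moxd1, Mup15 and Hspa1a at the upper left and Cyp2b9, Mt1 and Cidec at the lower right; Gsta1 is lower on both diets.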

How the data were processed

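Gene counts per lane file were deposited by the authors as raw whole numbers. RNA was extracted with Trizol and made into TruSeq libraries, per the labels' protocols, and GRCm38 is the build, per the submitters' processing notes. Aligner, counter, annotation and strandedness: not given in the sources used here. Values of near-identical or overlapping genes are therefore uncertain. The 2 lane columns of each mouse were summed. A gene was kept by edgeR's filterByExpr (minimum count 10, minimum total 15), which kept 12616 of 32544 rows. The fit was edgeR 4.0.16 (R 4.3.3) with TMM factors and the robust quasi-likelihood test on all 4 groups of 5 mice, with Benjamini-Hochberg adjusted p under 0.05. CPM use TMM-scaled libraries, and log2 CPM a prior count of 2. The SE of a log2 change was derived from it and its F. P-values of the fit set a group difference against the spread between mice, which was estimated over all 4 groups.

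Summed values were compared by exact two-sided permutation over 252 splits. DESeq2 1.42.0, limma-voom (limma 3.58.1), other scalings, filters, a clock covariate, single lanes and leaving out each mouse were the alternatives. In a test on simulated data for the Western diet comparison (12493 genes), recovery was 24 of 50 genes at a 1.5-fold change, 31 of 48 at 2-fold, 43 of 48 at 3-fold and 46 of 50 at 4-fold, and 9 unaltered genes were called. Genes named were a fixed set, the 15 largest changes each way without overlap and with a mean of at least 1 CPM, the 10 smallest p each way, and per list up to 4 called and 2 uncalled members; Lpl and Mup20 were chosen after their values were seen. The comparison and the 60 lists were chosen with earlier results of these data known. Gene positions are from GENCODE and promoters from RefSeq, both on GRCm38. Some named items are not reported here.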

Additional observations from a re-analysis of the deposited data

Results flagged for a closer look

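The effect of VB differed between the diets in 39 of the 40 genes given mouse by mouse (adjusted p under 0.05 for the difference term of edgeR's fit), Gsta1 being the exception. These genes were chosen for their change on the Western diet, which is part of that difference, so the count is a description. Values below are the log2 effect on the Western diet minus that on the control diet.

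Among the genes of smallest p and of lipid storage the difference was Fzd4 -2.22, Lipe -1.89, Pdlim2 -2.51, Cidec -3.93, Plin2 -0.54, Pparg -2.09, Cd36 -1.96, Agpat9 -3.13 and Mogat1 -2.15. Carnitine and oxidation genes were at Slc22a5 -1.65, Bbox1 -0.41 and Acadm -0.81. Drug metabolism genes were at Cyp3a11 -1.73, Cyp2b9 -8.61, Abcc3 -1.59 and Fmo1 -0.53, and the Cyp2b9 value depends on the prior count. Choline, metal and NAD genes were at Chka 1.94, Chpt1 -0.78, Mt1 -4.12 and Nmrk1 -1.30. Chaperone and stress genes were at Bag3 1.59, Hspa1a 5.05, Hspa1b 3.15, Dnajb1 1.42 and Herpud1 0.92. Clock genes were at Nfil3 1.98 and Arntl 2.44, and male-biased genes at Mup20 1.46, Mup15 4.42, Elovl3 1.82, Moxd1 9.78 and C9 0.78. Fasting, glycogen and sterol genes were at Tat 1.95, Ddc 1.41, Klf15 0.70, Ppp1r3b 1.03, Gys2 -1.04, Insig1 1.57 and Mvd 2.04.

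In 4 of 80 groups of 5 mice examined over these genes, 1 mouse lay far from the other 4, where chance gives about 1 in 20. Gsta1 was 6.59 CPM in VB mouse 4 and 0.529 to 2.05 in the other VB mice. Abcc3 was 105.3 CPM in vehicle mouse 4 and 227 to 258 in the other vehicle mice. Nfil3 was 24.2 CPM in VB mouse 1 and 40.0 to 44.6 in the other VB mice. Arntl was 15.6 CPM in VB mouse 5 and 4.59 to 6.73 in the other VB mice. All were on the Western diet.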

How the results depend on the processing

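The number of genes called for VB on the Western diet lay between 723 and 1249 under RLE size factors (912), upper-quartile factors (922), Mup genes left out of library sizes (916), no filter (723), a filter of 1 CPM in 5 mice (929), DESeq2 (1249), limma-voom (920) and either lane alone (732 and 759). It was 464 with only the Western diet groups fitted, where fewer mice estimate the spread. With the clock covariate 0 genes were called for the Western diet, 0 for the difference between diets and 0 for the control diet, with 598, 520 and 603 at an unadjusted p under 0.05. The score of the core loop alone, an alternative chosen after seeing the data, gave 18, 8 and 1. Leaving out 1 mouse gave 605 to 1225 genes for the Western diet, 749 to 1702 for the difference and 18 to 52 for the control diet, the highest number being without vehicle mouse 4 each time. The control diet count of 19 was 29 with upper-quartile factors, 30 with Mup genes left out, 29 with the CPM filter, 164 in DESeq2, 45 in limma-voom and 36 with lane 2 alone.

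Estimates that changed sign with the clock covariate were Selenbp2 -0.19, Mup8 -0.95, Mt1 0.10, Cyp7b1 -0.41, Elovl3 -0.24, Ces1g 0.035, Bdh1 0.11, Cyp3a59 0.28, Cyp2a5 0.10, Npas2 -1.02, Wee1 0.24, Mup16 -0.23 and Mup19 -0.0055, and with the core loop score Mup8 -0.16, Cyp7b1 -0.038 and Npas2 -0.053. The cause was not tested.

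With the mouse number as a replicate block 1067 genes were called for the Western diet, 1146 for the difference and 65 for the control diet. The numbers gave no clear pairing of Western diet mice. Correlations of deviations from the group means, vehicle against VB at the same number, ran from -0.07 to 0.38. Of these 10 mice 3 correlated best with the mouse of their own number in the other group. Control diet mice were not examined for this. With fewer reads, those of lane 1 or lane 2 alone, the 732 and 759 calls in place of 907 were not split by fold or level.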

Other observations

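Other large changes were seen in genes outside the groups described. The adhesion receptor gene Adgrf1 rose by 3.36 (SE 0.61), the trefoil peptide Tff3 by 3.30 (SE 0.53) and the ribonuclease Rnase2a by 3.28 (SE 0.59). The endocytic receptor Lrp2 rose by 2.49 (SE 0.56) and the cadherin Cdh1 by 2.17 (SE 0.37) on the log2 scale. The chitinase-like gene Chil1 fell by 3.12 (SE 0.58), the sulfotransferase Gal3st1 by 2.77 (SE 0.48) and the monocarboxylate transporter Slc16a5 by 2.39 (SE 0.54). The oxysterol-binding protein Osbpl3 fell by 2.34 (SE 0.43) and the ubiquitin-like modifier Ubd by 2.25 (SE 0.43). Adgrf1, Rnase2a and Lrp2 were at most 0.501 CPM in vehicle mice, and Chil1 at most 0.412 CPM in VB mice. Vehicle mouse 3 had no count of Adgrf1, and VB mouse 5 none of Chil1 and Gal3st1. The sizes of these changes are therefore uncertain. All 10 passed with an adjusted p under 0.05 in edgeR and had no overlap between 5 VB and 5 vehicle mice, as the rule that chose them required.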
